A study of Mus musculus with 30 samples.

Results

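Mitochondrial ribosomal protein genes are the nuclear genes that encode the protein part of the ribosome inside mitochondria. They were taken as every gene of the count table whose symbol is Mrpl or Mrps followed by a number, without pseudogenes: 78 of 55421 annotated genes, of which 49 are named Mrpl (large subunit) and 29 Mrps (small subunit). The symbols are historical, and Mrps30 and Mrps18a are known to sit in the large subunit, while Mrps36 is known as a component of the alpha-ketoglutarate dehydrogenase complex. Messenger RNA was sequenced in mouse E14 embryonic stem cells, an XY line of 129P2/Ola origin grown without feeder cells on gelatin in serum with LIF and the inhibitors PD0325901 and CHIR-99021. The 30 libraries fall into 10 groups of 3, from 5 engineered lines that each rest on 1 clone and all express Tir1, a plant protein that directs auxin-inducible degron (AID) fusions to the proteasome once auxin is present.

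The TIR1 line (EN148.10) has Tir1 but no degron fusion and serves as the control for auxin. In the PDS5AB line (EN293.1) both PDS5A and PDS5B are AID fusions, and in the WAPL line (CMW184) WAPL is. The PDS5AB-NIPBL line (EN331.2) and the WAPL-NIPBL line (EN382.1), called the combined lines here, add an FKBP degron on NIPBL, which responds to dTAG-13, and a Halo tag on the cohesin subunit RAD21. Each line was sampled untreated and after 24 h, with 500 µM auxin in the first 3 lines and with auxin plus 500 nM dTAG-13 in the combined lines. Each of the depleted proteins acts on cohesin, a ring-shaped complex known to form loops in chromatin. WAPL and the PDS5 proteins are known to limit how long cohesin stays on chromatin, and NIPBL is known to drive loop extrusion. The combined lines differ from the others in NIPBL depletion, in dTAG-13 and in 2 further tags, which cannot be told apart. The labels do not say whether the 3 libraries of a group came from separate cultures, so every p-value measures only the spread between these libraries. Libraries held 19632704 to 45539021 counted fragments, and the 78 genes together held between 0.355% and 0.476% of them.

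The mitochondrial ribosome translates only the few proteins encoded by mitochondrial DNA, all of them subunits of the respiratory chain and ATP synthase. Its RNA is made in the organelle, whereas every one of its proteins is made in the cytosol from nuclear mRNA and imported, so one complex is built from the output of 2 genomes. Many of its proteins have bacterial counterparts, and others are found only in mitochondrial ribosomes. Their promoters are known to be broadly active and rich in CG, with binding sites of ETS factors such as GABPA, of NRF1 and of YY1. In bulk RNA, fewer cells of a type and less RNA per cell cannot be told apart.

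RefSeq promoter windows (GRCm38.p6, from 250 bases before to 50 bases after a start) were available for 69 of the 78 genes, as 75 windows. The windows below are shown as examples of what promoters of genes described further on share or do not share. They are the 120 bases upstream of Mrpl24, Mrpl12, Mrps16 and Mrpl52, written 5′ to 3′ on the gene's strand. Capitals mark a motif match in the window.

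Mrpl24: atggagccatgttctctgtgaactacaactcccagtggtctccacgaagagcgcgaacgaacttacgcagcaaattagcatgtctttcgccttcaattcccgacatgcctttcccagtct

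Mrpl12: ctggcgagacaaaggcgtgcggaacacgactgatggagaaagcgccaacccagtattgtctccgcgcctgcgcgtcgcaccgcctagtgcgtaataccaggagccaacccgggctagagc

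Mrps16: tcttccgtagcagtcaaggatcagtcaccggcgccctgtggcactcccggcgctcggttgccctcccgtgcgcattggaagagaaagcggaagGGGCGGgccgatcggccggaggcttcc

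Mrpl52: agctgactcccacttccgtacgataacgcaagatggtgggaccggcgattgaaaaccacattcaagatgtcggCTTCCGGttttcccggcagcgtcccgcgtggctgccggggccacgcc

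These windows are chr3:87919386-87919505 (plus strand), chr11:120484493-120484612 (plus), chr14:20393635-20393754 (minus) and chr14:54426789-54426908 (plus). The capitals are a GC box in Mrps16 and an ETS core, read on the opposite strand, in Mrpl52. Searched on both strands over the full windows, the ETS core CCGGAAG was found in 34.7% of the 75 windows against 8.86% of all 32851 RefSeq promoter windows. The YY1 motif AAGATGGCG was in 10.7% against 1.40%, the GC box GGGCGG in 52% against 35.7% and the E-box CACGTG in 9.33% against 7.15%. These motifs do not contain one another. They are part of those searched: an NRF1 motif was searched as well, and it was left out after its share, higher in these windows than in all, had been seen, because its letters could not be printed here. A match is a description of letters and not a binding site. The median log2 change after PDS5A and PDS5B depletion was -0.23 for the 26 genes with an ETS core and -0.29 for the other matched genes.

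Counts were recorded for 77 of the 78 genes. Over these 77, mean levels per exon length in the 30 libraries ran from 2.30 RPKM for Mrpl48 through a median of 20.4 RPKM to 68.4 RPKM for Mrpl12, with Mrpl33 (2.77) and Mrpl23 (3.50) also at the low end and Mrpl18 (55.5) and Mrpl2 (67.7), a protein beside the peptidyl transferase centre, at the high end. Mrpl48, Mrpl33 and Mrpl18 share exon bases with Rab6a, Gm43809 and Tcp1, so their levels are uncertain. Mrpl53 was listed at 0 in every library. Its annotated exons overlap Gm42688 and Ccdc142os over 87.98% of their length, and fragments that fit more than one gene were not counted, so the 0 says nothing about its expression. Exons of 32 genes overlap another gene, and 46 genes are free of this. The remaining 77 genes passed the filter on low counts and were tested among 19868 genes. A gene was called at a Benjamini-Hochberg adjusted p under 0.05 over all 19868 genes in edgeR's quasi-likelihood test. CPM are counts scaled to a common library size, adjusted here by TMM factors.

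Most mitochondrial ribosomal protein mRNAs were called lower, by a modest amount, in the auxin-treated PDS5AB line, and some of them were also called lower in the TIR1 line that has no degron. In the PDS5AB line 50 of 77 genes were called lower and 0 higher, where 20.2% of all tested genes were called lower and 25.8% higher (46% in all). The median log2 fold change was -0.28, against 0.04 over all genes, and the range ran from -0.85 to 0.17. Their summed level fell from 4572 ± 137 to 3651 ± 57.6 CPM (SD, n = 3), with the highest treated library at 3703 below the lowest untreated one at 4463. In 56 of the 77 genes every auxin library was below every untreated library, which held for 23.2% of all genes, and in 0 was every auxin library above, which held for 29.6%. Only 4 genes were at least 1.5-fold lower (Mrpl12, Mrpl15, Mrpl39 and Mrpl42), and none reached a log2 change of -1 in any line. CPM and fold changes here are relative to TMM scaling: on library size alone the median of all genes moved to 0.19 and that of the 77 genes to -0.13, with 28 called lower and 4 higher. The distance between the medians was -0.32 under either scaling. A change of scaling shifts all genes by about the same amount, so this distance could hardly move and is no test of the scaling.

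**Figure D1:**
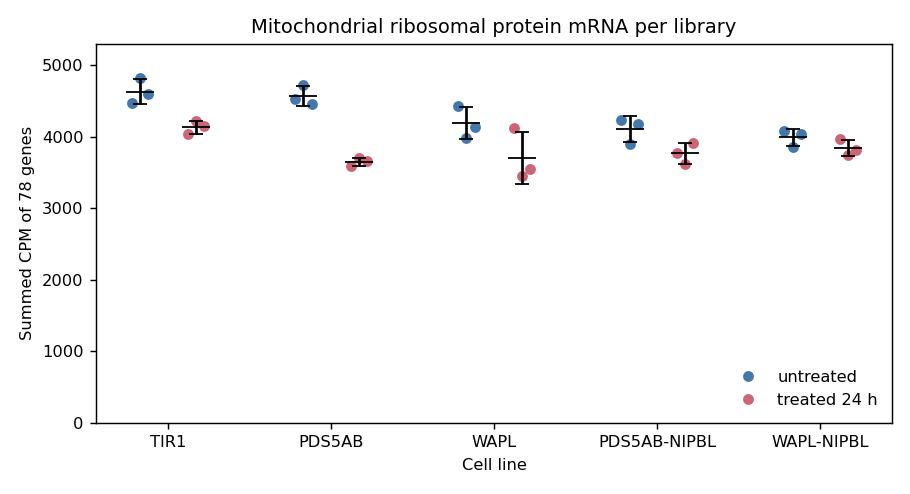
Summed CPM (TMM-scaled) of the 78 mitochondrial ribosomal protein genes in each of the 30 libraries, by cell line, with untreated libraries in blue and treated ones in red; the horizontal bar and whiskers are mean ± SD of 3 libraries. With this scaling the PDS5AB line shows the widest step, from 4572 to 3651 CPM, and in the WAPL line 1 auxin library, at 4128, lies among the untreated ones. Scaled to library totals instead, the mean went from 4635 to 4119 CPM in PDS5AB and from 4482 to 4044 in TIR1.

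Mrpl15, a counterpart of a bacterial large subunit protein, changed most. It was at 165, 170.2 and 170.3 CPM in the untreated PDS5AB libraries and at 86.8, 97.5 and 96.9 with auxin, a log2 change of -0.85 (SE 0.0574, adjusted p = 1.42e-12). The 2 sets of libraries were far apart. Mrpl12, whose product forms part of the ribosome's stalk and is also known to bind the mitochondrial RNA polymerase, was at 137, 146.6 and 125.5 CPM untreated and at 82.7, 89.2 and 78.9 with auxin. Its log2 change was -0.71 (SE 0.0856, adjusted p = 7.87e-08), with no overlap. Mrpl39, a large subunit protein without a bacterial counterpart, went from 91.7, 93.5 and 89.7 CPM to 55.2, 59.9 and 55.6. That is -0.69 on the log2 scale (SE 0.0676, adjusted p = 1.68e-09), and again all auxin libraries were lower. The lower calls were spread over both subunits, with 34 of 48 tested Mrpl genes and 16 of 29 Mrps genes. Among genes with a bacterial counterpart 34 of 48 were called lower, and among those without 16 of 29. The genes without exon overlap gave 33 of 46 and those with overlap 17 of 31. Over the 77 genes the log2 change, taken with its sign, had a Spearman's rho of -0.18 with mean RPKM and of -0.07 with exon length. A negative rho here means a lower log2 change at a higher level or length. This is a description over genes that share libraries.

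**Figure D2:**
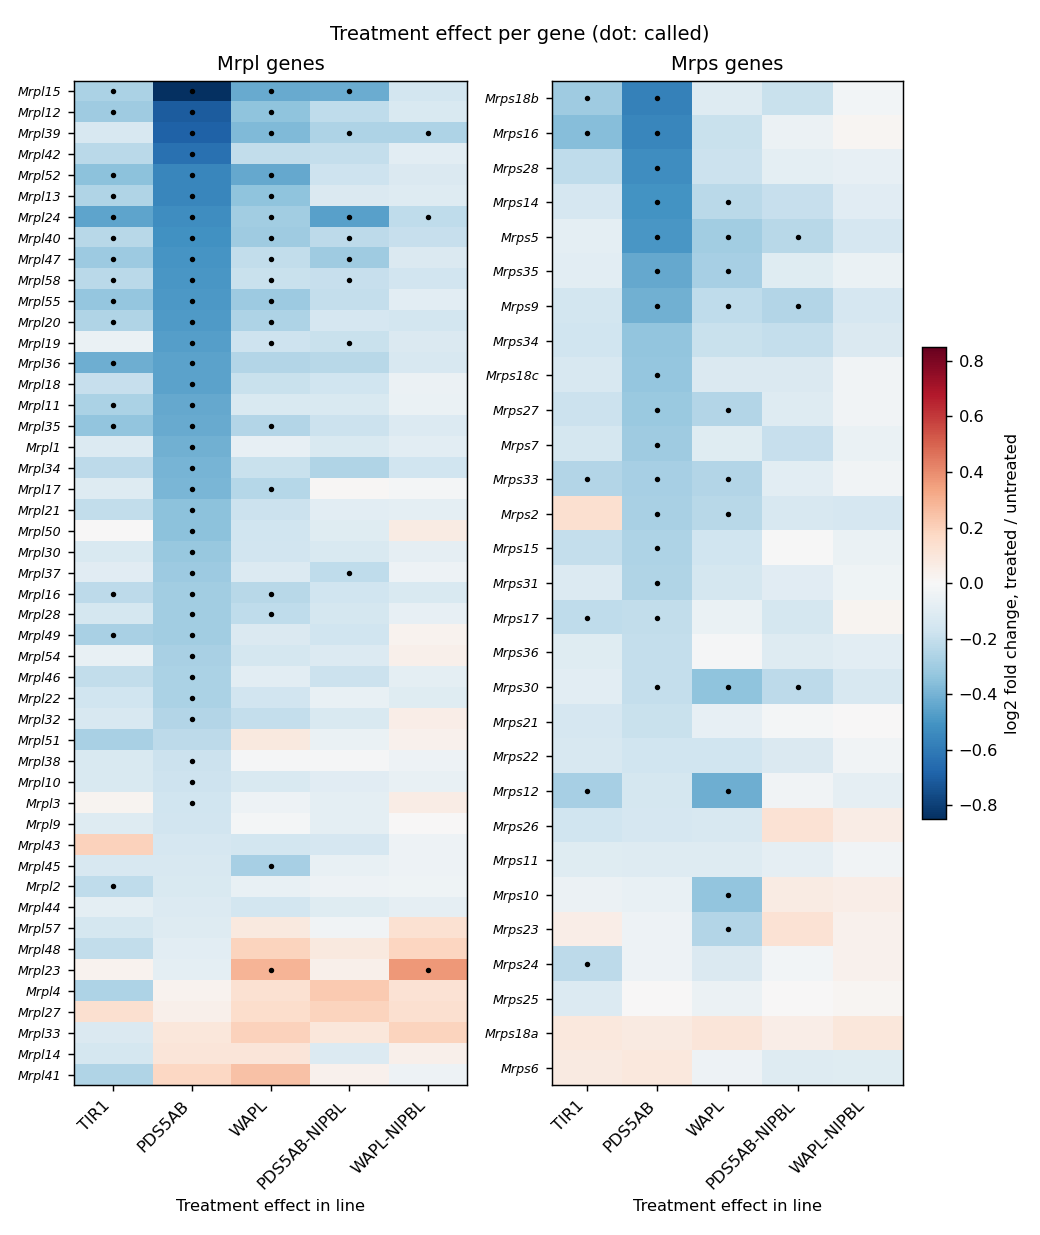
Log2 fold change (treated over untreated) of the 77 tested genes in each of the 5 lines, with Mrpl genes on the left and Mrps genes on the right, each ordered by the PDS5AB effect; blue is lower, red higher, and a dot marks a call at adjusted p under 0.05. The PDS5AB column is blue nearly throughout, with 50 dots, and the WAPL-NIPBL column is pale, with 3.

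Auxin in the TIR1 line, without any degron fusion, was measured in the same way. In the TIR1 control line 22 of 77 genes were called lower and 0 higher, against 9.59% and 10.4% of all genes (19.9% in either direction). The median log2 change was -0.15 (all genes -0.01), and the summed level went from 4631 ± 175 to 4136 ± 90.1 CPM. On library size alone the median was -0.14 (all genes 0.01), where that of the PDS5AB line was -0.13. Every auxin library was below every untreated one in 52 genes (18.7% of all genes) and above in 3 (20.4%). The untreated TIR1 libraries carry library numbers next to those of the PDS5AB line, while the auxin-treated TIR1 libraries carry the last numbers of the series, so auxin and this gap in library numbers cannot be told apart. The count also rests on single libraries: it was 7 without untreated replicate 2 or without auxin replicate 1, 14 without untreated replicate 3, 12 without auxin replicate 2 and 11 without auxin replicate 3. With upper-quartile scaling it was 36.

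The largest of the TIR1 changes were in Mrpl24, Mrpl36 and Mrps16, all counterparts of bacterial ribosomal proteins. Mrpl24 was at 64.2, 65.9 and 68.5 CPM untreated and at 47.8, 50.5 and 47.6 with auxin, a log2 change of -0.45 (SE 0.0663, adjusted p = 1.62e-05). Rrnad1 covers 26.3% of its exon bases, so its counts are uncertain. Mrpl36 went from 49.5, 55.6 and 51.4 CPM to 35.2, 41.9 and 40.3 (log2 change -0.41, SE 0.105, adjusted p = 0.00571). Without auxin replicate 1 its adjusted p was 0.0576, and 2.58% of its exon bases are shared with Ndufs6. Mrps16 went from 62.4, 63.9 and 62.5 CPM to 46.8, 51.2 and 49.0 (log2 change -0.36, SE 0.0896, adjusted p = 0.00443). In all 3 genes the auxin libraries were below the untreated ones.

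The test of the PDS5AB effect against the TIR1 effect was called for fewer of these genes than of all genes, and nearly all of its calls were more negative. The difference between the 2 effects was called for 15 of 77 genes (19.5%), where it was called for 26.3% of all genes. Of these, 14 were more negative in the PDS5AB line (18.2%, against 12.4% of all genes) and 1 was more positive (1.30%, against 13.9%). With the replicate number as a block it was called for 31 genes (40.3%, against 40.2% of all genes), 28 more negative (36.4%, against 20.2%) and 3 more positive (3.90%, against 20%). The replicate numbers did not pair the TIR1 libraries. Blocked comparisons with TIR1, here and further on, therefore rest on a pairing without support in that line. On library size alone 5 were more negative and 4 more positive, and without PDS5AB untreated replicate 2 the count was 9. The median difference over the 77 genes was -0.11 (all genes 0.04), and 0.03 on library size alone (all genes 0.18), so its sign depends on the scaling. Mrpl15 differed most, by -0.58 (SE 0.0805, adjusted p = 4.29e-06), followed by Mrpl39 with -0.55 (SE 0.0948, adjusted p = 7.18e-05). The one positive difference was in Mrpl41, a large subunit protein without a bacterial counterpart, at 0.43 (SE 0.160, adjusted p = 0.0443). Mrpl41 was at 20.8, 23.7 and 19.7 CPM in untreated and 25.0, 25.0 and 22.6 in auxin-treated PDS5AB libraries, which overlap, and at 22.2, 27.3 and 22.6 against 18.7, 20.8 and 20.6 in TIR1 libraries. Its call was lost in 9 of 12 leave-one-library-out fits and without the low-count filter, with adjusted p up to 0.148. The comparisons of the other lines against TIR1, given further on, share its libraries. In all of these comparisons auxin and the gap between the TIR1 library numbers cannot be told apart.

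Part of the same set was called lower in the auxin-treated WAPL line. The difference between this effect and the TIR1 effect had a median of 0.01 over the 77 genes (all genes 0.02). That median was 0.08 on library size alone or with upper-quartile factors (all genes 0.09). In the WAPL line 28 of 77 genes were called lower and 1 higher, against 15.8% and 17% of all genes (32.8% in all), and the median log2 change was -0.17 (all genes 0.00). That median was -0.11 without untreated replicate 1 or auxin replicate 3, -0.10 without auxin replicate 2 and -0.24 without auxin replicate 1. Paired by replicate number (the replicate block), 48 were called lower and 5 higher, against 23% and 22.1% of all genes. On library size alone 13 were lower and 4 higher, with a median of -0.08 for the 77 genes and of 0.09 for all genes. The summed level was 4191 ± 227 CPM untreated and 3710 ± 365 CPM with auxin. Auxin replicate 1, at 4128 CPM, lay among the untreated libraries (3991 to 4437), and auxin replicates 2 and 3 were at 3451 and 3552. Within each numbered pair the auxin library was the lower one (4437 and 4128, 3991 and 3451, 4144 and 3552). Without auxin replicate 1 the count of calls was 44, and without untreated replicate 1, auxin replicate 2 or auxin replicate 3 it was 14, 19 and 15. Treated libraries lay wholly below in 26 genes (19% of all genes) and wholly above in 2 (21.2%).

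Mrpl15 was again among the lowest, at 157, 152.3 and 145.7 CPM untreated and 118.9, 113.2 and 105.6 with auxin (log2 change -0.43, SE 0.0571, adjusted p = 6.57e-07). Mrps12, the counterpart of a bacterial protein of the decoding centre, went from 40.6, 38.4 and 37.6 CPM to 33.2, 25.9 and 28.7 (log2 change -0.41, SE 0.0878, adjusted p = 0.00044). In the PDS5AB line its log2 change was -0.15 (adjusted p = 0.163). Mrpl39 went from 89.8, 85.7 and 87.9 CPM to 75.3, 63.6 and 64.2 (log2 change -0.38, SE 0.0673, adjusted p = 5.46e-05). None of these 3 had overlapping libraries. The one gene called higher was Mrpl23, a protein known to line the exit of the large subunit's tunnel, at 14.86, 14.04 and 13.86 CPM untreated and 19.7, 16.8 and 15.9 with auxin (log2 change 0.29, SE 0.113, adjusted p = 0.0483). Its call was lost without the low-count filter (0.0648), without WAPL auxin replicate 1 (0.201) and without WAPL untreated replicate 1, 2 or 3 (0.0569, 0.0951 and 0.105).

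**Figure D3:**
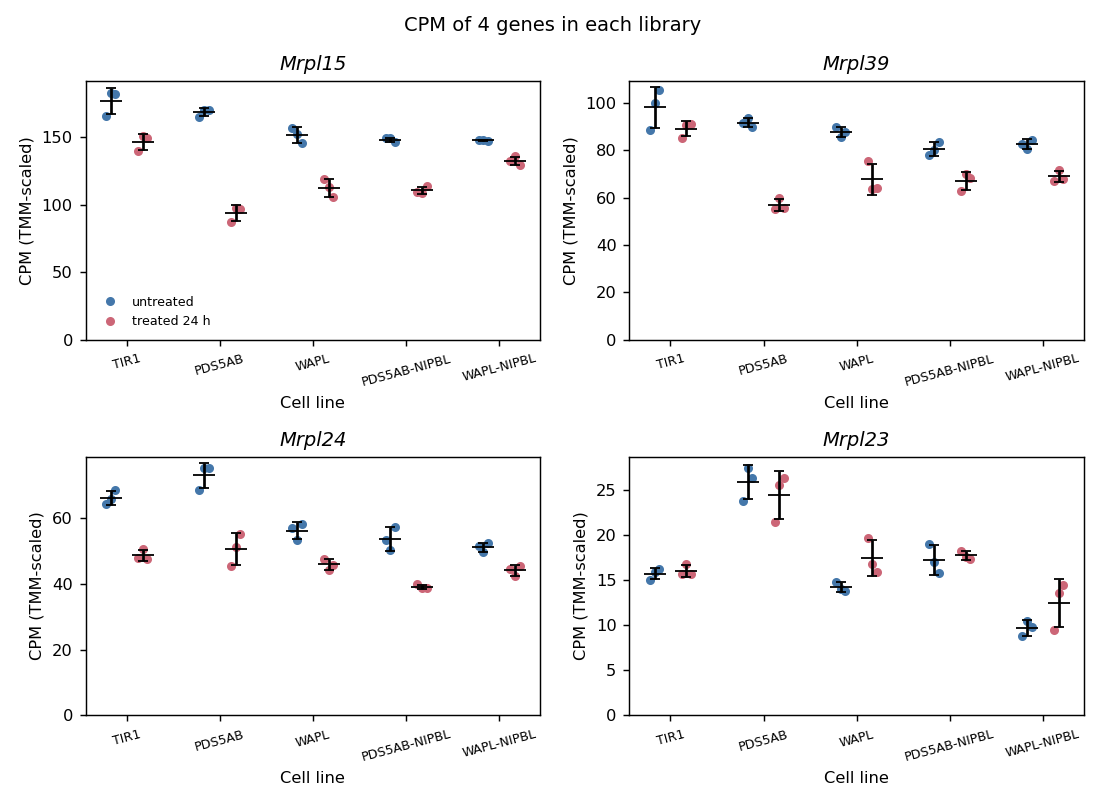
CPM (TMM-scaled) of Mrpl15, Mrpl39, Mrpl24 and Mrpl23 in each library, by cell line, untreated in blue and treated in red; the bar and whiskers are mean ± SD of 3 libraries and each vertical axis starts at 0. Treated libraries of Mrpl15 and Mrpl24 lie below the untreated ones in every line, whereas Mrpl23 differs mainly between the untreated lines.

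Of the 77 genes, 24 were called lower in both single lines, 26 in the PDS5AB line and not in the WAPL line, and 4 in the WAPL line and not in the PDS5AB line (Mrpl45, Mrps10, Mrps12 and Mrps23, named after their values were seen), which is 31.2%, 33.8% and 5.19% of them against 9.82%, 10.4% and 5.94% of all genes. This split depends on the pairing. Under the replicate block the counts were 45, 15 and 3 (58.4%, 19.5% and 3.9%, against 15.3%, 10.6% and 7.69% of all genes). Of the genes called lower in PDS5AB, 48% of these and 48.6% of all were also called lower in WAPL, and of those called lower in WAPL, 85.7% and 62.3% were also called lower in PDS5AB. With the replicate block these shares were 75% and 59.1%, and 93.8% and 66.6%, so the first match with all genes depends on leaving out the pairing. With the replicate block Mrpl45 and Mrps12 were also called lower in the PDS5AB line (adjusted p = 0.00452 and 0.0286), and the WAPL call of Mrps23 was lost under 5 settings (up to 0.109). The difference between the effects was called for 8 genes, all more negative in the PDS5AB line, where 5.11% of all genes were called more negative and 7.38% more positive (12.5% in all). Under the replicate block 27 were more negative and 3 more positive, against 13% and 14.3% of all genes (27.3% in all). On library size alone the calls were 3 and 3. The count was 2 without PDS5AB untreated replicate 2, 3 without WAPL untreated replicate 2, 4 without WAPL auxin replicate 1 and 13 without WAPL auxin replicate 3. Mrps18b, one of 3 paralogues of a bacterial small subunit protein, differed most, by -0.46 (SE 0.110, adjusted p = 0.00422). It was at 46.7, 51.8 and 51.7 CPM in untreated and 31.4, 33.1 and 36.2 in auxin-treated PDS5AB libraries, and at 49.2, 48.4 and 51.0 against 49.6, 41.1 and 46.8 in WAPL libraries, which overlap. Gm16279 covers 30.5% of its exon bases. Across the 77 genes the 2 effects, which share no library, had Pearson's r of 0.69, and the PDS5AB effect was the more negative in 66 (85.7%, against 50% of all genes). For comparison, r was 0.49 for PDS5AB with TIR1 and 0.63 for PDS5AB with WAPL-NIPBL.

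The WAPL effect stood apart from the TIR1 effect in 5 genes, 3 more positive and 2 more negative, against 9.86% and 10.9% of all genes (20.7% in all), so fewer of these genes than of all genes were called. With the replicate block 7 were more positive and 10 more negative, against 16% and 19.4% of all genes (35.4% in all). On library size alone the counts were 5 and 1. It was 2 without TIR1 untreated replicate 2, TIR1 auxin replicate 1 or WAPL untreated replicate 2, and 3 without TIR1 auxin replicate 3 or WAPL auxin replicate 3. The largest positive difference was in Mrpl41 (0.50, SE 0.161, adjusted p = 0.0237), whose WAPL libraries were at 21.1, 16.7 and 20.9 CPM untreated and 28.4, 18.8 and 22.7 with auxin, overlapping. That call was lost when the compared groups were fitted alone (0.0531) and without TIR1 untreated replicate 2, TIR1 auxin replicate 1, WAPL untreated replicate 2 or WAPL auxin replicate 1 (0.0907, 0.064, 0.0898 and 0.113). The largest negative one was in Mrps2, a counterpart of a bacterial small subunit protein, at -0.37 (SE 0.102, adjusted p = 0.00848). Mrps2 was at 162.5, 147 and 150.2 CPM in untreated and 142.8, 120.9 and 126.5 in auxin-treated WAPL libraries. In TIR1 it was at 160.5, 155.1 and 159.5 untreated and at 167.1, 174.9 and 179.3 with auxin, so its libraries moved apart in opposite directions. Over the 77 genes 35 effects were more negative in the WAPL line than in TIR1 (45.5%, against 48.2% of all genes).

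When NIPBL was depleted together with PDS5A and PDS5B, fewer of these mRNAs were called lower than in the PDS5AB line. In the PDS5AB-NIPBL line 11 of 77 genes were called lower and 0 higher, against 8.06% and 11.4% of all genes (19.5% in all), with a median log2 change of -0.12 (all genes 0.00), or of -0.07 on library size alone (all genes 0.05). The replicate block gave 30 lower and 2 higher (15.3% and 16.8% of all genes), and library size alone 7 and 1. The count was 6 without untreated replicate 1 or without treated replicate 1, and 7 without untreated replicate 3. The summed level was 4105 ± 182 CPM untreated and 3769 ± 142 CPM treated, and the 2 ranges overlapped (3897 to 4233 against 3627 to 3911), while within each numbered pair the treated library was the lower one (4233 and 3770, 3897 and 3627, 4185 and 3911). Treated libraries lay wholly below in 22 genes (15.6% of all genes) and wholly above in 1 (17.7%). All 11 genes were also called lower in the PDS5AB line, as were 75% of all genes called lower in PDS5AB-NIPBL.

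Mrpl24 was the lowest, at 53.4, 50.2 and 57.3 CPM untreated and 39.8, 38.6 and 38.6 treated (log2 change -0.46, SE 0.0679, adjusted p = 8.99e-06). Mrpl15 went from 149.1, 149.1 and 146.5 CPM to 109.5, 109 and 113.8 (log2 change -0.42, SE 0.0574, adjusted p = 2.78e-06). Mrpl47, a counterpart of a bacterial large subunit protein, went from 41.3, 40.2 and 44.7 CPM to 34.3, 32.2 and 35.6 (log2 change -0.30, SE 0.0782, adjusted p = 0.0053), and 24.2% of its exon bases are shared with Actl6a and Ndufb5. The treated libraries of all 3 lay below the untreated ones. Mrpl24 was at -0.53 (SE 0.0663) in the PDS5AB line, and the difference of 0.07 between the lines was not called.

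The direct test placed the combined effect above the PDS5AB effect for 11 genes and below it for 0, where 4.97% and 4.48% of all genes were called (9.46% in all). The replicate block put 28 above and 0 below (13% and 11.4% of all genes). On library size alone it was 5, without PDS5AB untreated replicate 2 or PDS5AB-NIPBL untreated replicate 2 it was 6, and without treated replicate 3 of the PDS5AB-NIPBL line it was 7. In 72 of the 77 genes (93.5%, against 48.2% of all genes) the PDS5AB effect was the more negative one, and the median difference was 0.17 (all genes -0.02), or 0.06 on library size alone (all genes -0.12). The 11 genes were Mrps16, Mrpl12, Mrps28, Mrpl42, Mrpl13, Mrpl15, Mrpl39, Mrpl17, Mrps18b, Mrpl20 and Mrps35. The calls of Mrps28, Mrpl42, Mrpl13, Mrps18b, Mrpl20 and Mrps35 were lost under 7, 4, 3, 3, 8 and 8 settings (up to 0.155, 0.097, 0.061, 0.0972, 0.139 and 0.131). Mrps16 differed most, by 0.51 (SE 0.129, adjusted p = 0.0109). It went from 51.8, 58.6 and 54.1 CPM to 34.98, 39.2 and 37.5 in the PDS5AB line. In the combined line it was at 51.5, 47.8 and 49.7 untreated and at 43.5, 47.5 and 52.5 treated, so those libraries overlapped. The untreated combined line was lower than the untreated PDS5AB line, at 4105 against 4572 summed CPM. That difference was not tested, and line and library number range cannot be told apart in it. Across genes the 2 effects, which share no library, had Pearson's r of 0.73. Over all pairs of lines r ran from 0.29 (TIR1 with WAPL) to 0.74 (PDS5AB-NIPBL with WAPL-NIPBL), and no value over all genes was computed.

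**Figure D4:**
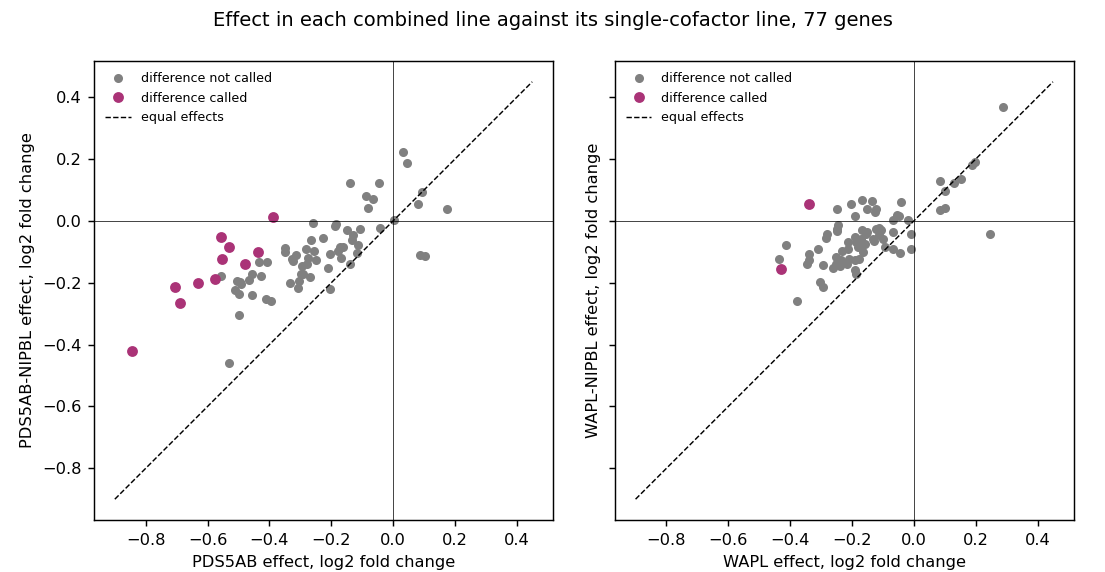
Log2 fold change of each of the 77 genes in the PDS5AB-NIPBL line against the PDS5AB line (left) and in the WAPL-NIPBL line against the WAPL line (right); the dashed line marks equal effects and purple points are genes whose difference was called. Of the points, 72 on the left and 65 on the right lie above the dashed line, with 11 and 2 called.

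Joint WAPL and NIPBL depletion gave the fewest calls of the 5 lines. In the WAPL-NIPBL line 2 of 77 genes were called lower and 1 higher, against 3.45% and 5.11% of all genes (8.57% in all), so the share was near or under that of all genes. The median log2 change was -0.05 (all genes 0.01), and -0.03 without untreated replicate 1 or treated replicate 2 or 3. It was -0.0043 on library size alone (all genes 0.05). The replicate block gave 11 lower and 2 higher (10.1% and 10.8% of all genes), and library size alone 1 and 1. With upper-quartile scaling 2 were lower and 0 higher. The count fell to 1 without untreated replicate 1 or treated replicate 1 or 2, and to 0 without untreated replicate 3 or treated replicate 3. The summed level was 3997 ± 119 CPM untreated and 3842 ± 112 CPM treated, with overlapping libraries but a lower treated library within each numbered pair (4086 and 3965, 3862 and 3745, 4043 and 3814). Scaled to library totals instead, the treated library of pair 1 was the higher one (3879 and 3899), and pairs 2 and 3 were at 3728 and 3712 and at 3961 and 3888. Treated libraries lay wholly below in 12 genes (12.6% of all genes) and wholly above in 3 (14.4%).

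The 2 lower calls were Mrpl39, from 82.9, 80.5 and 84.5 CPM to 67.2, 71.7 and 68.0 (log2 change -0.26, SE 0.0674, adjusted p = 0.0117), and Mrpl24, from 51.4, 49.6 and 52.3 CPM to 44.6, 42.3 and 45.4 (log2 change -0.21, SE 0.0672, adjusted p = 0.0438). Treated libraries lay below the untreated ones in both. The Mrpl39 call was lost without untreated replicate 3 (0.0665) and without treated replicate 1 or 3 (0.0691 and 0.0607). The Mrpl24 call did not hold in any of 6 leave-one-library-out fits, on library size alone (0.139), without the low-count filter (0.213) and with the 2 groups fitted alone (0.0533). Mrpl23 was called higher (log2 change 0.37, SE 0.119, adjusted p = 0.048), with 8.76, 10.5 and 9.85 CPM untreated and 9.47, 13.6 and 14.4 treated, and these libraries overlapped. Its call was lost with upper-quartile factors (0.0527), with the 2 groups fitted alone (0.149), without untreated replicate 1 or 3 (0.185 and 0.104) and without treated replicate 2 or 3 (0.166 and 0.267). The WAPL-NIPBL effect was above the WAPL effect in 2 genes and below it in 0, against 3.03% and 2.16% of all genes (5.19% in all). With the replicate block 12 were above and 0 below, against 8.75% and 6.7% of all genes (15.5% in all). Of the 77 differences 65 were positive (84.4%, against 51.3% of all genes), with a median of 0.10 (all genes 0.01), or of 0.06 on library size alone (all genes -0.03). The larger was in Mrps10, a counterpart of a bacterial small subunit protein, at 0.39 (SE 0.108, adjusted p = 0.0272), and the other in Mrpl15 at 0.27 (SE 0.0806, adjusted p = 0.0407), a call lost under 14 settings (up to 0.256). Mrps10 went from 54.9, 53.9 and 52.8 CPM to 47.0, 39.5 and 41.4 in the WAPL line, without overlap, and from 49.0, 47.5 and 45.8 to 49.9, 50.5 and 47.6 in the combined line, with overlap. Its difference was lost without the low-count filter (0.0585) and in 6 of 12 leave-one-library-out fits (up to 0.0781). The count of 2 became 8 without WAPL auxin replicate 1. It was 0 without WAPL untreated replicate 1, WAPL auxin replicate 2 or 3, WAPL-NIPBL untreated replicate 3 or WAPL-NIPBL treated replicate 1 or 2, and 1 without WAPL-NIPBL untreated replicate 1 or 2 or treated replicate 3.

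Set against the TIR1 effect, in which auxin and the gap in library numbers cannot be told apart, the combined effects stood apart in few genes. The PDS5AB-NIPBL effect differed from the TIR1 effect in 1 gene, more positive, and in 0 more negative (5.28% and 4.81% of all genes, 10.1% in all), and with the replicate block in 7 and 3 (12% and 13.1% of all genes, 25.1% in all). That gene was Mrpl4, a counterpart of a bacterial protein of the exit tunnel, at 0.48 (SE 0.137, adjusted p = 0.0212). Mrpl4 was at 84.8, 68.8 and 78.6 CPM untreated and at 97.0, 79.6 and 94.2 treated in the combined line, overlapping, and at 80.4, 82.6 and 79.4 against 68.2, 66.8 and 67.1 in TIR1. Its call was lost without treated replicate 1 or 3 or untreated replicate 2 of the combined line, or without TIR1 auxin replicate 2 or 3 (0.0705, 0.0587, 0.0868, 0.0522 and 0.0514), and the count of calls was then 0 except without treated replicate 3. The WAPL-NIPBL effect differed from the TIR1 effect in 0 genes by edgeR (3.1% of all genes more positive, 3.94% more negative, 7.04% in all), with 13 genes at an unadjusted p under 0.05 and 2 called by DESeq2. With the replicate block it differed in 18 (23.4%, against 22.3% of all genes), of which 17 were more positive and 1 more negative, against 10.1% and 12.2% of all genes. On library size alone it differed in 4.

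Calls were also counted across lines. Of the 77 genes, 23 were called lower in none of the 4 depletion effects, 29 in 1, 15 in 2, 8 in 3 and 2 in all 4. These are 29.9%, 37.7%, 19.5%, 10.4% and 2.60%, against 72.5%, 15%, 7.08%, 3.47% and 1.99% of all genes, so without the pairing the share called in all 4 was near that of all genes. The 2 were Mrpl24 and Mrpl39, and the 8 were Mrpl15, Mrpl19, Mrpl40, Mrpl47, Mrpl58, Mrps30, Mrps5 and Mrps9. Each of these 8 except Mrpl15 lost at least 1 of its calls under another setting, among them those of Mrpl19 in WAPL under 10 and of Mrps30 in PDS5AB under 5 (up to 0.310 and 0.593). Mrpl24 was at 68.7, 75.2 and 75.1 CPM in untreated and 45.5, 51.1 and 55.0 in treated PDS5AB libraries, and at 57.1, 53.4 and 58.2 against 47.7, 44.2 and 45.8 in WAPL libraries (log2 change -0.29, adjusted p = 0.000922). It was also lower in TIR1 at -0.45, and its PDS5AB effect differed from that TIR1 effect by -0.09. Mrpl39 was at 77.98, 80.1 and 83.7 CPM in untreated and 62.8, 70.0 and 68.2 in treated PDS5AB-NIPBL libraries (log2 change -0.27, adjusted p = 0.00509), a call lost without treated replicate 1 (0.0531). In TIR1 it was at 88.8, 100.2 and 105.5 against 85.4, 90.6 and 91.3 CPM (log2 change -0.14, adjusted p = 0.144). Fold changes were negative in all 5 lines for 49 genes (63.6%, against 15.1% of all genes) and positive in all 5 for Mrpl27 and Mrps18a (2.60%, against 16.5%), neither of them called in any line. None of the 77 genes was called in opposite directions in 2 lines (4.87% of all genes were), and 20 genes were called in no line (26%, against 36.7%). These tallies depend on the pairing. Under the replicate block 14 genes were called lower in none of the 4 depletion effects, 14 in 1, 23 in 2, 15 in 3 and 11 in all 4 (18.2%, 18.2%, 29.9%, 19.5% and 14.3%, against 63.6%, 15.7%, 9.13%, 5.77% and 5.78% of all genes). There 6 genes were called in no line (7.79%, against 23.3%), and Mrpl4, Mrpl41, Mrpl48 and Mrps2 were called in one direction in TIR1 and in the other in a depletion line (5.19%, against 11.9%). The counts of that last sentence include TIR1, whose replicate numbers did not pair its libraries, so they rest in part on a pairing without support.

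The untreated lines differed from each other in these genes before any treatment was given. Against untreated TIR1, 34 of 77 genes were called lower and 1 higher in PDS5AB-NIPBL (17.8% and 16.5% of all genes), 44 and 0 in WAPL-NIPBL (14.6% and 13.4%) and 17 and 0 in WAPL (7.39% and 6.62%). In PDS5AB 6 were lower and 7 higher (16.5% and 15.5%), with a median log2 difference of -0.01. That balance depends on the scaling: 4 were lower and 15 higher on library size alone (median 0.06, all genes 0.07) and 3 and 14 with upper-quartile factors (median 0.06, all genes 0.08). The libraries of the WAPL and combined lines carry later numbers than the untreated TIR1 libraries, so line and library number range cannot be told apart there. Untreated WAPL-NIPBL against untreated WAPL, within one number range, gave 3 lower and 0 higher (5.67% and 4.99%). Leaving out TIR1 untreated replicate 2 brought the WAPL-NIPBL, PDS5AB-NIPBL and WAPL counts to 25, 21 and 3. Without the untreated replicate 2 of the respective line they were 29, 21 and 2, and the WAPL count was 9 without TIR1 untreated replicate 3 and 4 without WAPL untreated replicate 3. The PDS5AB count of 13 became 6 without TIR1 untreated replicate 1, 8 without PDS5AB untreated replicate 2 and 7 without PDS5AB untreated replicate 3, and the WAPL-NIPBL against WAPL count became 1 without the untreated replicate 3 of either line.

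Mrpl23 had the widest range over the 30 libraries, 3.13-fold from lowest to highest. Its untreated libraries were at 15.1, 15.9 and 16.2 CPM in TIR1, 23.8, 27.5 and 26.4 in PDS5AB, 14.86, 14.04 and 13.86 in WAPL, 19.05, 16.98 and 15.8 in PDS5AB-NIPBL and 8.76, 10.5 and 9.85 in WAPL-NIPBL. PDS5AB stood above TIR1 by 0.72 (SE 0.112, adjusted p = 6.47e-06), and WAPL-NIPBL below TIR1 by -0.69 (SE 0.118, adjusted p = 5.03e-05) and below WAPL by -0.55 (SE 0.118, adjusted p = 0.00177). In PDS5AB the largest lower difference was in Mrpl17, a counterpart of a bacterial large subunit protein, at 130.9, 118.3 and 115.7 CPM against 157, 161.2 and 152.1 in TIR1 (log2 difference -0.37, SE 0.0728, adjusted p = 0.000192). In PDS5AB-NIPBL, Mrps28, a small subunit protein, was lowest relative to TIR1, with 29.9, 28.9 and 27.2 CPM against 35.9, 43.5 and 41.9 (-0.50, SE 0.0990, adjusted p = 0.000237), and Mrpl50, a large subunit protein without a bacterial counterpart, was the one gene called higher, with 70.4, 72.6 and 71.9 CPM against 52.2, 63.4 and 59.8 (0.29, SE 0.0744, adjusted p = 0.00277). In WAPL the largest was in Mrpl52, another such protein, with 50.4, 38.01 and 44.1 CPM against 52.8, 60.1 and 57.5 (-0.36, SE 0.115, adjusted p = 0.0319). Its call was lost without TIR1 untreated replicate 2 or 3 or WAPL untreated replicate 2 or 3 (0.131, 0.0845, 0.221 and 0.0889).

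The genes that serve mitochondrial translation around these ribosomal proteins were counted in the same way. In the PDS5AB line, where 20.2% of all genes were called lower and 25.8% higher, the share called lower was 63.0% of assembly factors, 46.7% of translation factors and 70.6% of mitochondrial aminoacyl-tRNA synthetases. Of 27 assembly factors 17 were called lower and 0 higher (median log2 change -0.28), of 15 translation factors 7 and 0 (median -0.21), and of 17 synthetases 12 and 1 (median -0.30). Of 5 further mitoribosome proteins with other names 4 were lower, and of 6 mitochondrial transcription genes 5. The largest called fall in each list was in Rbfa, a maturation factor of the small subunit (-0.73, SE 0.0966, adjusted p = 3.79e-07), Mtrf1, a release factor relative (-0.57, SE 0.105, adjusted p = 4.87e-05), Cars2, the mitochondrial cysteine tRNA synthetase (-0.50, SE 0.0831, adjusted p = 1.16e-05), Gadd45gip1, a large subunit protein (-0.52, SE 0.113, adjusted p = 0.000384) and, among the transcription genes, Mterf1a (-0.63, SE 0.170, adjusted p = 0.00289). Exons of Rbfa and Gadd45gip1 overlap other genes, so both are uncertain, as is Mterf1a, which has the near-identical copy Mterf1b. In the WAPL line (15.8% of all genes lower, 17% higher) the counts, lower and higher, were 9 and 1 assembly factors, 4 and 1 translation factors, 1 and 1 synthetases, 1 and 0 further mitoribosome proteins and 2 and 0 transcription genes. There Mrm1, a ribosomal RNA methyltransferase, fell by 0.73 on the log2 scale (adjusted p = 4.63e-06) and Tfam, the packaging and transcription factor of mitochondrial DNA, by 0.40 (adjusted p = 2.34e-05). In the same order they were 6 and 0, 0 and 0, 2 and 0, 0 and 0 and 1 and 0 in PDS5AB-NIPBL (8.06% and 11.4% of all genes). They were 1 and 1, 0 and 0, 1 and 0, 0 and 0 and 0 and 0 in WAPL-NIPBL (3.45% and 5.11%), and 7 and 1, 2 and 0, 4 and 1, 1 and 0 and 1 and 0 in TIR1 (9.59% and 10.4%). Several of these calls were lost under other settings. In WAPL-NIPBL that was so for Fars2 under 8 settings, Rbfa under 5 and Mtg2 under 1 (adjusted p up to 0.149, 0.206 and 0.0534). In TIR1 it was so for Polrmt under 7, Mterf3 under 7, Dap3 under 6 and Lars2 under 1 (up to 0.246, 0.125, 0.162 and 0.0787). The Lars2 call was lost without TIR1 untreated replicate 1, so it rested on that library. In WAPL it was so for Aurkaip1 under 4, Mrrf under 3 and Wars2 under 2 (up to 0.0952, 0.0866 and 0.0782), and in PDS5AB for Wars2 under 3 (up to 0.0978).

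**Figure D5:**
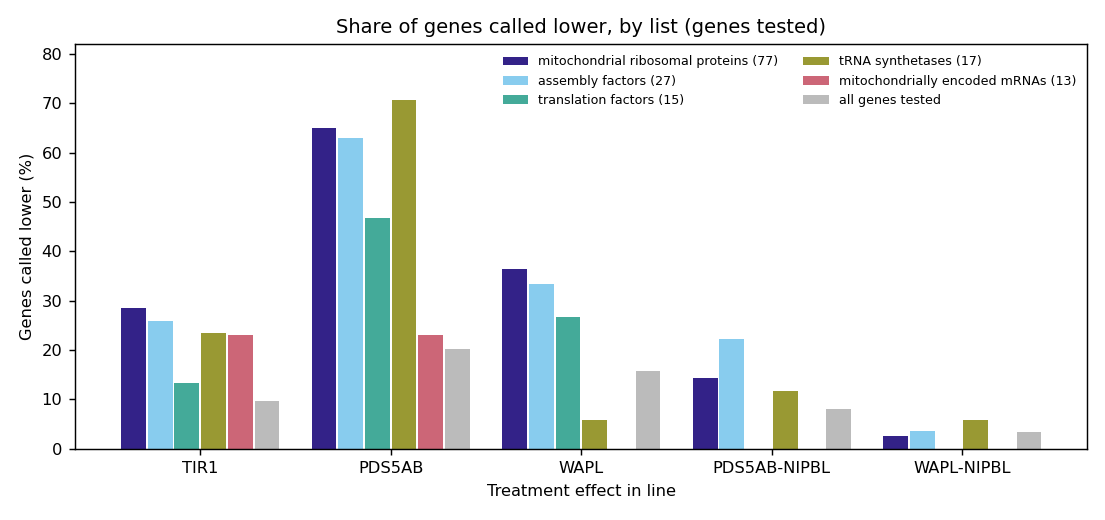
Share of genes called lower (%) in each line for 5 lists, with the number of genes tested in parentheses, beside the share over all 19868 tested genes in grey; bars start at 0. In the PDS5AB line the ribosomal proteins stand at 64.9%, and the mitochondrially encoded mRNAs at 23.1%, beside 20.2% of all genes.

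The products of the mitochondrial genome were described separately. Of 13 mitochondrially encoded mRNAs 3 were called lower in the PDS5AB line, 3 in TIR1 and 0 in the other lines, and in the WAPL line 1 was called higher. The shares of all genes called lower were 20.2% in PDS5AB and 9.59% in TIR1, and 17% were called higher in WAPL. Of these mRNAs mt-Nd3, mt-Nd4l, mt-Co2, mt-Co3, mt-Atp6 and mt-Atp8 were at 0.196 to 54.9 CPM over the libraries and the other 7 at 703 or more, so few fragments of those 6 were counted. Their values are uncertain, and the part of the counting in this gap was not tested. All 3 TIR1 calls were among those 6, and all 3 PDS5AB calls and the WAPL call among the other 7. Some of these calls did not hold: that of mt-Co1 in WAPL was lost without auxin replicate 1 or untreated replicate 2 or 3 (0.0846, 0.0887 and 0.0573), that of mt-Nd1 in PDS5AB on library size alone (0.109), and that of mt-Atp6 in TIR1 without untreated or auxin replicate 2 (0.105 and 0.0581). With the replicate block the counts were 9 lower in PDS5AB (26% of all genes) and 7 higher in WAPL (22.1%). The block also called lower, in TIR1, all 6 mRNAs with few fragments and 3 of the other 7 (17.2% of all genes). The TIR1 numbers do not pair its libraries. Median log2 changes in TIR1 were -1.03 over those 6 and -0.10 over the other 7. In PDS5AB-NIPBL 1 of the other 7 was lower and 2 higher under the block (15.3% and 16.8%). Over all 13 the median log2 change was -0.26 in PDS5AB and 0.20 in WAPL, and over the 7 with more counts -0.20 and 0.20, where the ribosomal protein genes had -0.17. The 2 mitochondrial ribosomal RNAs were called in no line by edgeR, but they carry only short A tails, which limits what counts from polyA-selected libraries show. Of 9 tested regulators of nuclear genes for mitochondria, 6 were called lower and 0 higher in PDS5AB (20.2% and 25.8% of all genes), 4 and 2 in WAPL (15.8% and 17%), 2 and 1 in PDS5AB-NIPBL (8.06% and 11.4%), 1 and 1 in WAPL-NIPBL (3.45% and 5.11%) and 2 and 1 in TIR1 (9.59% and 10.4%). The higher call in TIR1, of Gabpa, was lost with upper-quartile scaling (0.054) and without TIR1 untreated replicate 2 (0.0576). Mycn, a growth-related transcription factor of embryonic stem cells, was lower in each depletion line, at -1.73 (SE 0.108) in PDS5AB, -0.89 (SE 0.102) in WAPL, -0.90 (SE 0.104) in PDS5AB-NIPBL and -0.49 (SE 0.102) in WAPL-NIPBL. Myc was lower in TIR1 (-0.83, SE 0.220) and in PDS5AB (-0.73, SE 0.216) and higher in WAPL (0.69, SE 0.219), PDS5AB-NIPBL (0.76, SE 0.206) and WAPL-NIPBL (0.76, SE 0.214). Each of the Myc calls was lost without 1 library. That library was TIR1 auxin replicate 2 (adjusted p = 0.0601), PDS5AB untreated replicate 1 (0.116), WAPL untreated replicate 2 (0.0974), PDS5AB-NIPBL treated replicate 3 (0.0616), and each of WAPL-NIPBL untreated replicate 2 and treated replicates 1 and 3 (0.159, 0.0685 and 0.0842).

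Most markers of the embryonic stem cell state were called lower in the 4 depletion lines, and 2 of 7 in TIR1, and markers of other cell types were called in every line, TIR1 included. Called in either direction were 46% of all genes in PDS5AB, 19.5% in PDS5AB-NIPBL, 32.8% in WAPL, 8.57% in WAPL-NIPBL and 19.9% in TIR1, and with 3 or 4 markers a list many of the counts that follow are near these shares. The summed level of Pou5f1, Nanog, Sox2, Klf4, Esrrb, Zfp42 and Tfcp2l1 was 4956 to 5232 CPM in untreated and 3044 to 3228 CPM in treated PDS5AB libraries, with 7 of 7 called lower. It went from 5248 to 5371 down to 4021 to 4117 CPM in WAPL, from 5581 to 5850 down to 4586 to 4915 in PDS5AB-NIPBL and from 5312 to 5457 down to 4422 to 4539 in WAPL-NIPBL, with 6 of 7 called lower in each and Tfcp2l1 not called. In TIR1 it was 5177 to 5408 untreated and 5246 to 5554 with auxin, with 2 called lower (Zfp42, log2 change -0.39, and Esrrb, whose call was lost under 8 settings, up to 0.334) and 2 higher (Klf4 and Tfcp2l1). Fibroblast markers summed to 10.7 to 30.7 CPM over all libraries, with Dcn at 0 in 23 of them and Col3a1 in 8, and in PDS5AB they went from 14.4 to 16.4 up to 29.2 to 30.7 CPM, with 3 of 3 tested called higher. Endoderm markers (Gata4, Gata6, Sox17 and Foxa2) went from 5.62 to 8.30 up to 12.5 to 15.4 CPM in PDS5AB, with 2 of 4 called higher, and in WAPL 3 of 4 were called higher at 4.2 to 5.6 CPM. In the other lines 1 of 3 fibroblast markers was called higher in TIR1 and in PDS5AB-NIPBL and 2 were called lower in WAPL, and 1 of 4 endoderm markers was called higher in each combined line and 0 in TIR1. Mesoderm markers summed to between 9.1 and 32.4 CPM, with 1 higher and 1 lower in PDS5AB and in PDS5AB-NIPBL, 2 higher in WAPL and 1 higher in TIR1 and in WAPL-NIPBL. Neural markers summed to between 130.6 and 248.6 CPM, with 1 higher and 2 lower in PDS5AB, 1 and 1 in WAPL and in PDS5AB-NIPBL, 0 and 1 in WAPL-NIPBL and 0 and 2 in TIR1, where they went from 191.0 to 220.1 down to 150.2 to 168.2 CPM. Trophoblast markers summed to between 31.1 and 144.4 CPM, with 1 higher and 1 lower in PDS5AB and in WAPL-NIPBL, 1 and 2 in WAPL, 2 and 1 in PDS5AB-NIPBL and 2 and 0 in TIR1, where they went from 88.4 to 95.97 up to 139.8 to 144.4 CPM. The largest marker changes in TIR1 were in Cdx2, a trophoblast factor (log2 change 2.78, SE 0.228), and T, a mesoderm factor (2.02, SE 0.225), both at low levels. Of the calls counted here, that of Mesp1 in WAPL was lost under 7 settings, DESeq2 among them (0.067), with adjusted p up to 0.200, that of Eomes in PDS5AB without untreated replicate 1 (0.0596) and that of Col1a2 in PDS5AB without untreated replicate 3 (0.075). The call of T in PDS5AB-NIPBL was lost without untreated replicate 1 or treated replicate 1 or 3 (0.104, 0.0785 and 0.0571), that of Gata6, the endoderm call of WAPL-NIPBL, without untreated replicate 1 or 2 (0.0588 and 0.0715), and that of Tubb3 in TIR1 without untreated replicate 2 (0.053). The part of these marker changes in the fall of the ribosomal protein genes was not tested.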

How the data were processed

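Stranded polyA RNA-seq libraries were made from 30 samples, per the labels' protocols. The deposited table holds raw fragment counts per gene from featureCounts 2.0.1 in paired-end mode with GENCODE vM23 models, per the file headers. Its command sets no strand, multi-mapping or multi-overlap option, so sense and antisense reads were counted together and ambiguous fragments were dropped. The submitters' processing notes list cutadapt, STAR 2.7.7a, deepTools and the builds mm10 and GRCm38.p6, without order. Symbols matched 55154 of 55421 identifiers (99.52%). No row lacked a gene identifier. The genes, and all lists set beside them, were chosen with earlier results of these data known. The deposited table's exon lengths served for RPKM.

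All 30 libraries were fitted with 10 group means in edgeR 4.0.16 (R 4.3.3), with filterByExpr (minimum count 10), TMM factors from 0.950 to 1.13, 20 residual degrees of freedom and a common biological coefficient of variation of 9.15%. The quasi-likelihood test was adjusted over 19868 genes for each of 17 comparisons: 5 treatment effects, 7 differences of effects and 5 comparisons of untreated lines. Replicates correlated at 0.987 or more (log2 CPM). On simulated data for the PDS5AB effect (18983 genes run), 75% of genes changed 1.5-fold and 94% of those changed 2-fold were called. Alternatives were other scalings, no filter, DESeq2 1.42.0, the compared groups alone, a replicate block and leaving out each library. Same-numbered libraries deviated together in the 4 degron lines, with correlations of 0.109 to 0.333 in PDS5AB, 0.207 to 0.331 in WAPL, 0.163 to 0.222 in PDS5AB-NIPBL and 0.186 to 0.249 in WAPL-NIPBL, so there the numbers pair the samples, a pairing taken from the data. In TIR1 the correlations were -0.01 to 0.06.

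Genes were named by a rule: the 3 largest called changes per direction in each treatment effect without overlap of libraries and with a mean of at least 50 counts, the largest called per direction in each other comparison, genes called the same way in all 4 depletion effects, the 3 highest and 3 lowest RPKM, genes that failed the filter and, from the other lists, the largest called changes. The 11 genes of the PDS5AB-NIPBL minus PDS5AB difference, the genes called in 3 depletion effects, those at least 1.5-fold lower and a few others were named after their values were seen.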

Additional observations from a re-analysis of the deposited data

Results flagged for a closer look

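Differences between lines in treated against untreated libraries were singled out where the test of the difference passed. The combined lines received auxin plus dTAG-13 and the others auxin alone, so comparisons between these differ in treatment too. The number of the 77 genes for which it passed was 15 for PDS5AB against TIR1, 5 for WAPL against TIR1, 1 for PDS5AB-NIPBL against TIR1, 11 for PDS5AB-NIPBL against PDS5AB, 2 for WAPL-NIPBL against WAPL and 8 for PDS5AB against WAPL. The comparisons against TIR1 share its 6 libraries and are not independent of each other. In each of them auxin and the gap between the TIR1 library numbers cannot be told apart.

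Of the differences named in the text, as log2 values, those of PDS5AB minus TIR1 were -0.58 for Mrpl15, -0.55 for Mrpl39 and 0.43 for Mrpl41. The others were 0.50 for Mrpl41 and -0.37 for Mrps2 (WAPL minus TIR1), 0.48 for Mrpl4 (PDS5AB-NIPBL minus TIR1), 0.39 for Mrps10 and 0.27 for Mrpl15 (WAPL-NIPBL minus WAPL) and -0.46 for Mrps18b (PDS5AB minus WAPL). For PDS5AB-NIPBL minus PDS5AB they were 0.51 for Mrps16, 0.49 for Mrpl12, 0.45 for Mrps28, 0.43 for Mrpl42, Mrpl13 and Mrpl15, 0.42 for Mrpl39, 0.40 for Mrpl17, 0.39 for Mrps18b and 0.34 for Mrpl20 and Mrps35. The check for a sample far from its group needs at least 4 samples, so it was not run on these groups of 3.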

How the results depend on the processing

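Counts are of the 77 genes called, in either direction. None of the 150 called gene results run under the alternatives changed direction, and 259 of their 2069 values lost the call.

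With library sizes alone the count was 32 for the PDS5AB effect, 17 for WAPL, 9 for PDS5AB minus TIR1, 4 for WAPL-NIPBL minus TIR1, 5 for PDS5AB-NIPBL minus PDS5AB, 1 for WAPL-NIPBL minus WAPL and 6 for untreated WAPL-NIPBL against WAPL, and the PDS5AB median became -0.13. With upper-quartile factors it was 36 for the TIR1 effect, 3 for WAPL-NIPBL minus TIR1, 1 for WAPL-NIPBL minus WAPL and 6 for untreated WAPL-NIPBL against WAPL. Without the low-count filter it was 6 for PDS5AB-NIPBL, 1 for WAPL-NIPBL minus TIR1, 0 for WAPL-NIPBL minus WAPL (9 genes had an unadjusted p under 0.05 in edgeR with the filter), 5 for PDS5AB minus WAPL, 8 for untreated PDS5AB and 6 for untreated WAPL against TIR1. With the compared groups fitted alone it was 13 for WAPL, 7 for PDS5AB-NIPBL, 2 for WAPL minus TIR1, 3 for PDS5AB-NIPBL minus TIR1, 3 for WAPL-NIPBL minus TIR1, 1 for WAPL-NIPBL minus WAPL, 3 for PDS5AB minus WAPL, 8 for untreated PDS5AB and 11 for untreated WAPL against TIR1. DESeq2 gave 2 for WAPL-NIPBL minus TIR1 and 5 for untreated WAPL-NIPBL against WAPL. Summed CPM on the library total, in place of TMM scaling, was 4119 in auxin-treated PDS5AB, 3856 in untreated WAPL-NIPBL and 4044 in auxin-treated TIR1 libraries.

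With the replicate block the count was 53 for WAPL, 32 for PDS5AB-NIPBL, 13 for WAPL-NIPBL, 31 for PDS5AB minus TIR1, 17 for WAPL minus TIR1, 10 for PDS5AB-NIPBL minus TIR1, 18 for WAPL-NIPBL minus TIR1, 28 for PDS5AB-NIPBL minus PDS5AB, 12 for WAPL-NIPBL minus WAPL, 30 for PDS5AB minus WAPL and 6 for untreated WAPL-NIPBL against WAPL. In TIR1, whose libraries share only a number, the block moved the count from 22 to 48 (46 lower and 2 higher, against 17.2% and 18.4% of all genes). None of the 150 was lost under the block.

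Leaving out 1 library at a time gave 7 to 20 for TIR1, 43 to 52 for PDS5AB, 14 to 44 for WAPL, 6 to 15 for PDS5AB-NIPBL and 0 to 2 for WAPL-NIPBL. For the differences it gave 9 to 18 (PDS5AB minus TIR1), 2 to 7 (WAPL minus TIR1), 0 to 1 (PDS5AB-NIPBL minus TIR1), 0 to 1 (WAPL-NIPBL minus TIR1), 6 to 15 (PDS5AB-NIPBL minus PDS5AB), 0 to 8 (WAPL-NIPBL minus WAPL) and 2 to 13 (PDS5AB minus WAPL). For untreated lines it gave 6 to 14 (PDS5AB), 2 to 20 (WAPL), 21 to 37 (PDS5AB-NIPBL) and 25 to 40 (WAPL-NIPBL) against TIR1, and 1 to 3 for WAPL-NIPBL against WAPL. Where a group is left with 2 libraries and fewer degrees of freedom, fewer calls follow in part from that construction; the cause of the other moves was not tested. Changes under 1.5-fold, which most of these are, were not simulated.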
